A study of Mus musculus with 8 samples.

Results

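DL-Tshz2 neurons are a subtype of deep-layer (DL) excitatory neurons of the mouse prefrontal cortex (PFC), named after Tshz2, a zinc-finger transcription factor of the teashirt family. The cells were taken from the authors' annotation, in which 304 of 2775 excitatory neurons and of 8997 annotated PFC cells carried the name DL-Tshz2. The other 2471 excitatory neurons comprised 743 DL-Foxp2, 626 SL-Cux2, 463 DL-Nnat, 383 DL-Etv1, 194 SL-Myh7 and 62 DL-Pou3f1 cells, where SL stands for superficial layer. PFC cells of male mice of the C57BL/6N strain, 8 to 10 weeks old per the labels, were profiled by droplet single-cell RNA sequencing in 4 libraries, 2 from WT mice and 2 from Setd1a+/- mice, each holding the pooled tissue of 2 animals. The methods state another age. Setd1a encodes a histone H3K4 methyltransferase, and the Setd1a+/- mice carry a small CRISPR-Cas9 frameshift deletion ahead of the catalytic SET domain on 1 allele. The 4 striatal libraries of the series were not used here. Nothing in the labels describes other alleles or any treatment.

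DL-Tshz2 cells numbered 78 and 88 in WT replicates 1 and 2, and 101 and 37 in Setd1a+/- replicates 1 and 2. All per-library values below are given in that order. Unique molecular identifiers (UMIs, counts of captured mRNA molecules) of these cells summed to 453483, 350861, 432931 and 151336, from libraries holding 15154268 to 24594416 UMIs in all. A level is given in CPM, in which a gene's UMIs are scaled by the UMI total of that subtype's cells in the library. Setd1a+/- replicate 2 is thus the shallowest of the 4, and 1 UMI in it is worth 6.61 CPM. The authors kept cells with few mitochondrial reads, and in the 304 cells the lowest number of detected genes was 806 and the highest mitochondrial share was 9.51%. Of the barcodes annotated in the PFC, 35 occurred in more than 1 library, of which 1 was a DL-Tshz2 cell in both libraries.

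Excitatory neurons of the cortex use glutamate as their transmitter and are divided by layer and by target. Those of the deep layers project out of the cortex, to the thalamus, or within the cortex, and a class known as near-projecting neurons sends only short axons. Each class is recognised by transcription factors, by the vesicular glutamate transporter it uses, and by its peptides and receptors. Subtypes are clusters of the same cells and genes that are compared here, so gene levels of DL-Tshz2 against other subtypes are a description and were not tested. Genes were tested between genotypes, over libraries, and the depth and RNA classes of the cells also between subtypes within libraries.

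**Figure D1:**
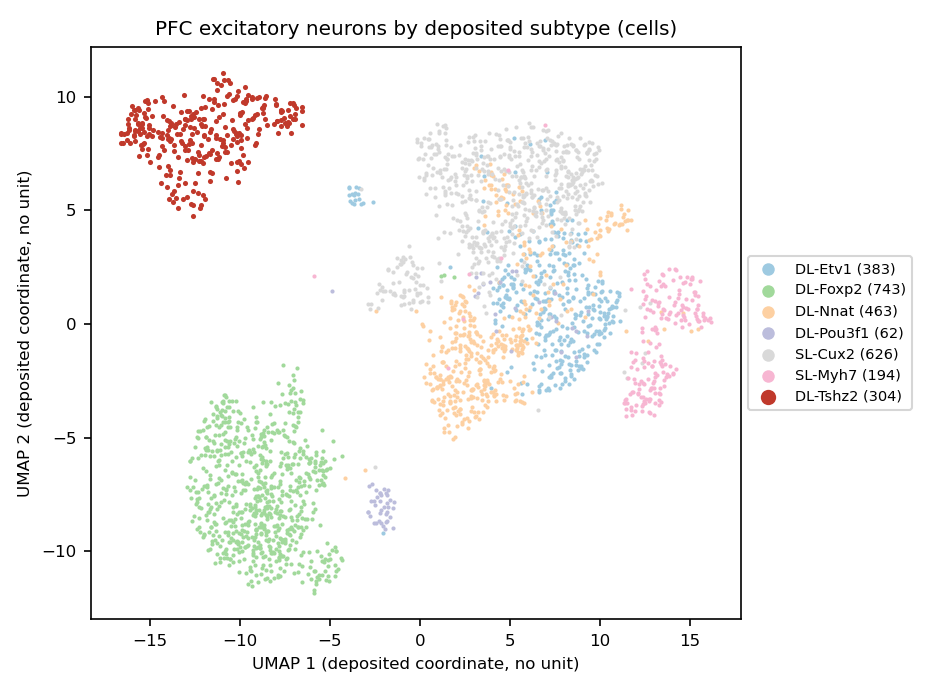
The authors' 2-dimensional UMAP coordinates (arbitrary units on both axes) of the 2775 excitatory PFC neurons, coloured by annotated subtype, with the 304 DL-Tshz2 cells in red. Each point is a cell, and the DL-Tshz2 cells form a group apart from the other subtypes, at the upper left of the map.

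Promoter sequences of 2 genes on which the results below turn are shown with the occurrences of CCGGAA, the core bound by ETS-family factors, because Etv1, a marker of these cells, encodes an ETS factor. Of the genes enriched in DL-Tshz2, Trh had the largest ratio to the highest other subtype, with 4 UMIs in all other excitatory neurons. Without Setd1a+/- replicate 1 the ratio of Slc17a8 was larger, at 266 against 188. Myl4 was the gene outside the haemoglobins with the smallest p for a genotype difference unlike that of the other excitatory neurons. Each sequence runs 5′ to 3′ from 250 bases before to 50 bases after the start site in RefSeq on GRCm38.p6, with CCGGAA on either strand in capitals. The Trh promoter lies at chr6:92244601-92244900 on the minus strand and the Myl4 promoter at chr11:104550413-104550712 on the plus strand.
Trh: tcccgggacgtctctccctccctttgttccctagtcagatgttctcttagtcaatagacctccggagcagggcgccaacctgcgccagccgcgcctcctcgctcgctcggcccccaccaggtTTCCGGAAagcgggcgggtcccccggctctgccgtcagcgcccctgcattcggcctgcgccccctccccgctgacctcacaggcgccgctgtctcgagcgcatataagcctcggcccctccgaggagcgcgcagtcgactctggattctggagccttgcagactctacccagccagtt
Myl4: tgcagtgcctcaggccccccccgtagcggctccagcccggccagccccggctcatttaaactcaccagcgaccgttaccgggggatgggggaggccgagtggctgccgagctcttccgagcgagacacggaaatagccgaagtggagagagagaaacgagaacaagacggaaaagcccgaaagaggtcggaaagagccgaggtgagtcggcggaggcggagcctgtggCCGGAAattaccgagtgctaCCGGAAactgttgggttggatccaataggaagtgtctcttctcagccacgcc
In Trh the 2 matches overlap on opposite strands, at bases -128 to -123 and -126 to -121 from the start site. In Myl4 they lie at -22 to -17 and -2 to 3. The core was present in 12 of 59 promoters of the genes enriched in DL-Tshz2 (20.3%), in 1 of 24 of the depleted genes (4.17%), in 1843 of 5488 of all genes measured here (33.6%), and in 4503 of 27025 of all genes with a promoter (16.7%). The promoters of Tshz2, Nxph1, Etv1, Slc17a8 and Htr2c held none, and 1 of 3 promoters of Lypd1 held a match, at -28 to -23. A match is a description of the letters and not of a bound site.

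The 4 markers given with the annotation were high in DL-Tshz2 in every library. Tshz2 (ENSMUSG00000047907, protein coding, chr2:169633013-170071816, plus strand, GRCm38) stood at 2276, 2260.2, 1894 and 2669.6 CPM, against a mean of 10.4 CPM over the other 6 subtypes and 36.8 CPM in SL-Cux2, the next in order. Nxph1 (chr6:8948431-9249032, plus strand), a secreted ligand of alpha-neurexins, stood at 269, 162, 217 and 258 CPM against 1.67 CPM. Lypd1 (chr1:125867622-125913101, minus strand), a membrane-anchored modulator of nicotinic receptors, stood at 677, 553, 674 and 389.9 CPM against 49.0 CPM. The least exclusive of the 4 was Etv1 (chr12:38779380-38870484, plus strand), with 1083, 906, 1146 and 991 CPM against 122 CPM on average and 259 CPM in DL-Pou3f1. Levels in the 4 libraries did not overlap with those of any other subtype mean for these genes.

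Per cell, 129 of 304 DL-Tshz2 cells held UMIs of all 4 markers and 136 held 3 of them, while 2 held none. Among the other excitatory neurons, 0 cells held all 4 and 10 held 3. Tshz2 itself was found in 98.7% of DL-Tshz2 cells (95% Wilson interval 96.7 to 99.5) and in 5.58% of other excitatory neurons. In oligodendrocytes, which should lack the gene and were used as a measure of free RNA, it was found in 0.885% of cells. DL-Tshz2 cells held a median of 4576.5 UMIs and the other excitatory neurons 6993, so each cell was also thinned to 1500 UMIs, which kept 294 of 304 and 2427 of 2471 cells. After thinning, Tshz2 was found in 94.9% against 1.73%, Etv1 in 69.4% against 9.44%, Lypd1 in 55.4% against 3.87%, and Nxph1 in 28.2% against 0.247%. The order between the groups was the same at equal depth. The markers are not restricted to this subtype in the cortex. Endothelial cells held Tshz2 in 53.1% of cells, and inhibitory neurons held Nxph1 in 67.1%.

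Genes known from near-projecting neurons were also high in DL-Tshz2. Of 8 listed genes 7 were measured, meaning at least 20 CPM in DL-Tshz2 or on average in the other subtypes, and 6 of these were at least 2-fold above the mean of the other subtypes in each library. Over all 7005 genes measured, 204 were (2.91%). Vwc2l, a secreted cysteine-rich protein, had 128, 82.7, 78.5 and 119 CPM against 3.49 CPM. Sla2, a Src-like adaptor, had 77.2, 59.9, 62.4 and 66.1 CPM, from 93 UMIs against 7 in all other excitatory neurons. Rapgef3, a cAMP-activated exchange factor for Rap, had 28.7, 19.95, 25.4 and 19.8 CPM against 0.657 CPM. The exception was Pdlim1, which had 0, 0, 2.31 and 0 CPM against 22.4 CPM and goes against the list. Of 8 measured markers of other excitatory subtypes, 2 were higher (25%) and 3 were lower (37.5%, among them Pou3f1 of a deep-layer subtype, at 0 UMIs), against 2.91% and 5.11% of all genes measured, and the median log2 ratio was -1.24. The 2 that were higher mark deep layers. Fezf2, a determinant of deep-layer projection neurons, had 256, 123, 252 and 178 CPM against 51.5 CPM, and Tle4, a corepressor of corticothalamic neurons, had 443, 325, 233 and 469 CPM against 67.7 CPM. These are means of the other subtypes, and neither gene was at least 2-fold above every other subtype in each library. Cux2, of superficial neurons, had 1 UMI in the 304 cells.

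Defining markers of other cell classes were low or at 0 for most classes. Summed over their lists, interneuron markers reached 22.1, 105, 27.7 and 13.2 CPM in DL-Tshz2 against 9.94 to 31.6 CPM in other excitatory neurons, with 6 of 8 detected and Lhx6 and Pvalb at 0. WT replicate 2 stood above the other libraries. Oligodendrocyte markers reached 120 to 203 CPM against 95.8 to 165 CPM with 8 of 8 detected, and microglial markers 33.0 to 57.0 CPM with 7 of 7 detected. Endothelial markers stayed at 16.2 to 19.8 CPM with Pecam1 and Cldn5 at 0, newly formed oligodendrocyte markers at 2.21 to 6.61 CPM with Enpp6 and Bmp4 at 0, and oligodendrocyte progenitor markers gave 1 of 6 detected. The astrocyte list was the exception. It summed to 1140, 906, 1067 and 978 CPM against 527 to 666 CPM, through Slc1a2, a glutamate transporter, and Aldoc, a glycolytic enzyme, while Gja1 and Slc1a3 averaged 1.16 and 0.551 CPM and Aqp4 was at 0.

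A gene was taken as enriched when DL-Tshz2 was at least 2-fold above every other subtype in each of the 4 libraries, at a mean of at least 20 CPM. This held for 67 of 6127 genes (1.09%). Applied to the other subtypes, the same rule gave 36 genes in DL-Pou3f1, which had at least 10 cells in only 2 libraries, 31 in DL-Foxp2, 13 in SL-Myh7, 5 in SL-Cux2, 1 in DL-Nnat and 0 in DL-Etv1. The converse rule, 2-fold below every other subtype where the lowest of these had at least 50 CPM, gave 36 depleted genes of 2714 (1.33%). Sizes near the limit included Nap1l5, a nucleosome assembly protein homologue, which was the last of the 67 with 2.25-fold the highest other subtype. Set beside each subtype alone, DL-Tshz2 differed least from DL-Foxp2, with 221 genes higher and 273 lower by 2-fold in every library of 6850 compared, and a Pearson correlation of log2 levels of 0.825 across genes. Against DL-Pou3f1 it differed in 415 and 635 of 7221 genes, over 2 libraries only, and against SL-Myh7 in 287 and 440 of 7086. These correlations are across genes within the same libraries, and genes are not independent replicates. DL-Foxp2 also had the most cells of the other subtypes (743), and the part of cell number in this order was not tested.

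Vesicular glutamate transporters load glutamate into synaptic vesicles, and their mix in DL-Tshz2 was unlike that of the other subtypes. Of 9 transport genes measured for glutamate and GABA, 3 were at least 2-fold higher in each library (33.3%, against 2.91% of all genes measured) and 0 were 2-fold lower. Slc17a8 (vesicular transporter VGLUT3, chr10:89574020-89621253, minus strand) had 75.0, 42.8, 60.1 and 52.9 CPM, from 83 UMIs against 3 in all other excitatory neurons together, a ratio of 354 per UMI sequenced with a 95% counting interval of 117 to 1751. Slc17a6 (VGLUT2) had 149.9, 205, 139 and 172 CPM against 9.55 CPM, and 20.2 CPM in SL-Cux2, the next highest. All 4 DL-Tshz2 values lay above every other subtype mean for both genes. Slc17a7 (VGLUT1), the usual transporter of cortical excitatory neurons, had 108, 259, 60.1 and 231 CPM against 337 CPM, and its 4 libraries fell into 2 groups, both replicates 2 being higher than both replicates 1. Slc38a1, an amino acid transporter that takes up glutamine, had 221, 211, 226 and 218 CPM against 88.7 CPM.

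In single cells, Slc17a7 was found in 42.8% of DL-Tshz2 cells and 76.7% of other excitatory neurons, or 19.7% and 39.1% at equal depth. Slc17a6 was found in 46.1% against 5.95%, and Slc17a8 in 18.1% against 0.121%. In oligodendrocytes, with a median of 2056 UMIs per cell, Slc17a7 was found in 2.60% of cells and Slc17a6 and Slc17a8 in 0.0590% each, and Slc17a7 reached 6.93% in WT replicate 2. Cells with UMIs of both Slc17a6 and Slc17a7 numbered 68, those with Slc17a6 alone 72, those with Slc17a7 alone 62, and those with neither 102. Median depth fell in the same order, at 5599.5 UMIs in cells with both and 3848 UMIs in cells with neither, so a missing UMI does not show that a transporter was absent, and some Slc17a7 UMIs may be free RNA. These counts are of cells with UMIs and do not sort the cells by transporter use.

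Among secreted peptides, thyrotropin-releasing hormone and its receptor were both high in DL-Tshz2. Trh (ENSMUSG00000005892, protein coding, chr6:92242061-92244650, minus strand), the precursor of the peptide, had 88.2, 154, 50.8 and 39.6 CPM, from 122 UMIs against 4 in all other excitatory neurons. The pooled ratio was 390, with a counting interval of 149 to 1455. Trhr (chr15:44196135-44235912, plus strand), the receptor that couples to phospholipase C, had 139, 71.3, 109 and 99.1 CPM against 3.90 CPM, and 7.23 CPM in SL-Myh7, the next highest. Trh UMIs were found in 62 of the 304 cells (20.4%, 16.2 to 25.3), in 0.121% of other excitatory neurons, and in 0.0590% of oligodendrocytes. By library the share of cells was 21.8, 28.4, 16.8 and 8.11%, and after thinning 5.19, 16.7, 7.92 and 6.25%, so that the 2 Setd1a+/- libraries lay below both WT libraries before thinning and between them after it. Trhr was found in 32.9% of cells, and 26 cells held both genes, 36 only Trh and 74 only Trhr. Trh was thus counted in 26% of cells with Trhr and 17.6% of cells without, a description of 304 cells that share 4 libraries.

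**Figure D2:**
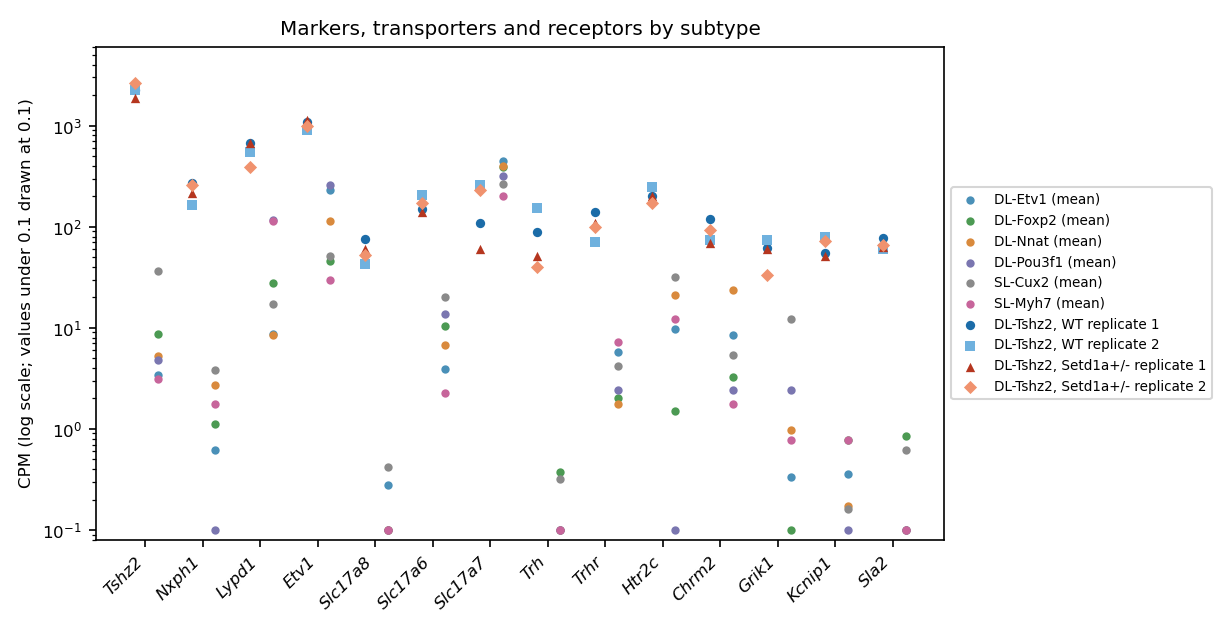
CPM (log axis, values under 0.1 drawn at 0.1) of 14 genes that are markers, transporters, peptides, receptors and other genes described for DL-Tshz2. For each gene the points at the left are the 4 DL-Tshz2 libraries and points at the right are the mean over libraries of each of the 6 other excitatory subtypes; Slc17a7 is the gene of this set whose DL-Tshz2 libraries do not lie above the other subtypes.

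Of 10 neuropeptide and growth factor genes measured, 3 were at least 2-fold higher and 5 were 2-fold lower than the mean of the other subtypes in each library (30% and 50%, against 2.91% and 5.11% of all genes measured). Scg2, the secretoneurin precursor, had 589, 470.3, 441 and 463 CPM against 159 CPM, and Grp, gastrin-releasing peptide, had 333, 185, 330.3 and 192 CPM against 80.7 CPM, though SL-Myh7 reached 199 CPM. Cck, the cholecystokinin precursor, had 4.41, 65.6, 4.62 and 0 CPM against 1147 CPM. Its 27 UMIs came mostly from WT replicate 2, which held 23. DL-Foxp2 was also low for Cck, at 68.8 CPM. Penk, the enkephalin precursor, had 0 UMIs against 22.6 CPM, and Bdnf, the TrkB ligand, had 2.21, 11.4, 6.93 and 13.2 CPM against 119 CPM. Of 6 peptide receptors measured 1 was higher, Trhr (16.7%), and 2 were lower (33.3%), against 2.91% and 5.11% of all genes measured. Cckbr, the cortical cholecystokinin receptor, had 0, 5.70, 0 and 0 CPM against 40.1 CPM, and Npy1r, a neuropeptide Y receptor, had 2.21, 8.55, 4.62 and 13.2 CPM against 40.5 CPM, with 10.6 CPM in DL-Foxp2.

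Receptors for amines, acetylcholine and endocannabinoids included 3 that were higher and 4 that were lower of 11 measured (27.3% and 36.4%, against 2.91% and 5.11% of all genes measured). Htr2c, the serotonin receptor 2C (chrX:146962513-147197277, plus strand), had 203, 245, 203 and 172 CPM against 12.7 CPM and was found in 55.9% of DL-Tshz2 cells and 7.61% of the others, or 30.3% and 2.14% at equal depth. Htr2a, the serotonin receptor 2A, had 6.62, 11.4, 0 and 0 CPM against 42.1 CPM. Muscarinic receptors differed in the same manner, Chrm2, which couples to Gi, having 119, 74.1, 69.3 and 92.5 CPM against 7.51 CPM, and Chrm3, which couples to Gq, having 0, 0, 0 and 6.61 CPM against 25.98 CPM. Hrh2, the histamine receptor H2, had 22.1, 22.8, 6.93 and 33.0 CPM against 3.35 CPM. Cnr1, the cannabinoid receptor CB1, had 26.5, 19.95, 20.8 and 0 CPM against 165 CPM, a level shared by DL-Foxp2 with 16.6 CPM. Htr2a was likewise low in DL-Foxp2, with 2.60 CPM.

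Among ionotropic glutamate receptors, 2 of 13 measured were higher (15.4%) and 1 was lower (7.69%), against 2.91% and 5.11% of all genes measured. Both that were higher encode kainate receptor subunits. Grik1 had 61.7, 74.1, 60.1 and 33.0 CPM against 2.76 CPM, and Grik3 had 101, 88.4, 73.9 and 112 CPM against 29.6 CPM, a level also reached by DL-Foxp2 with 89.5 CPM. Gria3, an AMPA receptor subunit, had 126, 105, 94.7 and 126 CPM against 335 CPM. Of 12 GABA receptor genes, 0 were higher and 2 were lower (16.7%). Gabbr2, a subunit of the GABA-B receptor, had 35.3, 19.95, 27.7 and 59.5 CPM against 183 CPM, and Gabra2, a GABA-A subunit, had 30.9, 22.8, 23.1 and 39.6 CPM against 124 CPM. The median log2 ratio over the 12 was -0.51, and over all genes measured it was -0.00.

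Of 38 potassium channel genes, 3 were higher (7.89%) and 6 were lower (15.8%) in each library, against 2.91% and 5.11% of all genes measured. Kcnip1, a calcium-binding partner of A-type Kv4 channels, had 55.1, 79.8, 50.8 and 72.7 CPM, from 86 UMIs against 7 in other excitatory neurons. Kcna6, of the Kv1 family, had 227, 268, 157 and 429.5 CPM against 97.0 CPM, and Kcnk2, the 2-pore channel TREK1, had 52.9, 28.5, 62.4 and 46.3 CPM against 18.6 CPM. On the lower side, Kcnq5, an M-current channel, had 11.03, 2.85, 4.62 and 6.61 CPM against 51.8 CPM, and Kcnd3, a Kv4 channel, had 0, 8.55, 4.62 and 6.61 CPM against 30.3 CPM. A Kv1 channel outside the list, Kcna5, was among the enriched genes with 39.7, 31.4, 57.7 and 46.3 CPM against 1.84 CPM. Of 26 sodium, calcium and HCN channel genes, 1 was higher (3.85%, near the share over all genes), the calcium channel subunit Cacna2d2 with 35.3, 19.95, 11.5 and 19.8 CPM against 5.24 CPM, and 3 were lower (11.5%). The related subunit Cacna2d3 had 0, 2.85, 0 and 0 CPM against 25.9 CPM.

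Synaptic adhesion and organising molecules included 5 higher and 8 lower genes of 42 measured (11.9% and 19.0%, against 2.91% and 5.11% of all genes measured). Besides Nxph1, the related Nxph2 had 24.3, 31.4, 32.3 and 33.0 CPM against 2.21 CPM, and Cbln2, a synapse organiser that binds neurexins, had 169.8, 105, 185 and 152 CPM against 28.7 CPM. Nxph1 and Nxph2 were found together in 12 cells, Nxph1 alone in 144 and Nxph2 alone in 24. Nptx2, a neuronal pentraxin, had 2.21, 5.70, 0 and 0 CPM against 31.9 CPM. C1ql3, a secreted organiser, had 70.6, 134, 23.1 and 79.3 CPM against 522 CPM, with DL-Foxp2 lower still at 8.47 CPM.

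Of 30 axon guidance genes 3 were higher (10%) and 6 lower (20%), and of 17 cadherins 2 were higher (11.8%) and 7 lower (41.2%), against 2.91% and 5.11% of all genes measured. The guidance receptor Epha4 (chr1:77367185-77515088, minus strand) had 6.62, 2.85, 6.93 and 13.2 CPM against 284 CPM, and the lowest other subtype, DL-Pou3f1, had 132 CPM. Alcam (chr16:52248996-52454074, minus strand), an adhesion molecule of the immunoglobulin family, had 4.41, 5.70, 2.31 and 0 CPM against 161 CPM, and Ntrk3, the neurotrophin-3 receptor TrkC, had 4.41, 8.55, 4.62 and 6.61 CPM against 135 CPM. These genes were depleted, all 4 DL-Tshz2 values being below every other subtype. Slit2, a secreted repellent, had 1 UMI in the 304 cells against 37.3 CPM. On the higher side stood Sema6a, a transmembrane semaphorin, with 41.9, 37.1, 18.5 and 46.3 CPM against 5.00 CPM, and Efnb3, an ephrin, with 143, 111, 152 and 79.3 CPM against 35.6 CPM. Among cadherins Pcdh17 had 756, 923, 679 and 799.5 CPM against 223 CPM, whereas Cdh10 had 2.21, 5.70, 4.62 and 0 CPM against 64.7 CPM.

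Of 21 calcium-binding and calcium-dependent genes 0 were higher and 6 were lower (28.6%, against 5.11% of all genes measured). Camk2a, the alpha subunit of calcium/calmodulin kinase II, had 46.3, 88.4, 41.6 and 99.1 CPM against 336 CPM, and both replicates 2 were above both replicates 1. Calb1, calbindin, had 1 UMI against 107 CPM, a mean set largely by SL-Myh7 with 473 CPM. In cAMP and G-protein signalling, 4 of 35 genes were higher (11.4%) and 7 were lower (20%), against 2.91% and 5.11% of all genes measured. Adcy2, an adenylyl cyclase, had 245, 217, 249 and 284 CPM against 56.2 CPM, and Adcy5, another, had 2.21, 5.70, 2.31 and 0 CPM against 28.0 CPM. Pde1a, a phosphodiesterase activated by calmodulin, had 66.2, 34.2, 67.0 and 33.0 CPM against 397 CPM. The depleted set also held Ptk2b, a calcium-activated tyrosine kinase, with 19.8, 14.3, 11.5 and 33.0 CPM against 188 CPM, Cit, citron kinase, with 30.9, 22.8, 23.1 and 26.4 CPM against 164 CPM, and Igfbp6, an insulin-like growth factor binding protein, with 0, 14.3, 0 and 6.61 CPM against 213 CPM. The other genes among the 15 with the smallest ratio to the lowest other subtype were 3110035E14Rik (0.0656 of that level), Stk32c, Prr13, Fam49a, Elmo1, 2010300C02Rik and Ube2ql1 (0.201).

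**Figure D3:**
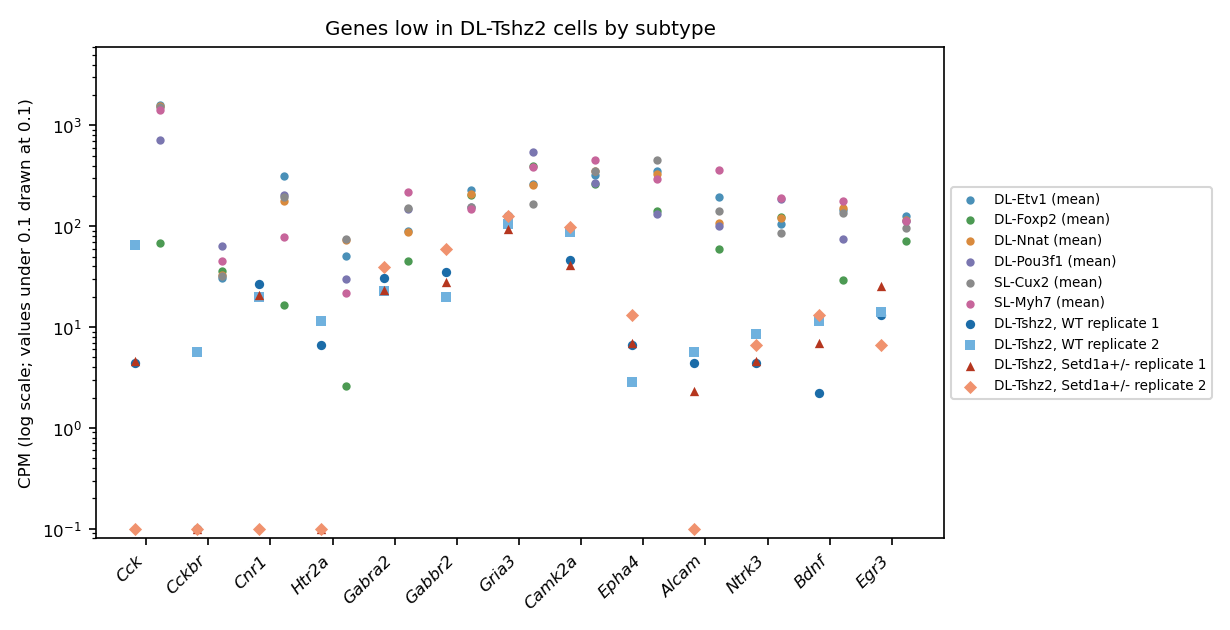
CPM (log axis, values under 0.1 drawn at 0.1) of 13 peptide, receptor, kinase, adhesion and activity-related genes that were lower in DL-Tshz2. For each gene the points at the left are the 4 DL-Tshz2 libraries and points at the right are the means of the 6 other excitatory subtypes. Epha4, Alcam, Ntrk3, Gabbr2, Camk2a and Egr3 met the rule for depleted genes, below every other subtype. For Cck and Cnr1 DL-Foxp2 is also low, with means of 68.8 and 16.6 CPM.

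Transcription factors of cortical layers and projection classes were 5 higher and 10 lower of 36 measured (13.9% and 27.8%, against 2.91% and 5.11% of all genes measured). Pou3f1 and Neurod1 had 0 UMIs in the 304 cells, against 22.96 and 42.1 CPM on average in the other subtypes. Rorb, of layer 4 and related neurons, had 26.5, 22.8, 16.2 and 33.0 CPM against 98.1 CPM, and Mef2c, an activity-regulated MADS-box factor, had 1275, 1471, 942 and 1084 CPM against 2646 CPM. Foxp2 was detected throughout, with 68.4, 91.2, 57.7 and 46.3 CPM, but below DL-Foxp2 with 275 CPM. Further enriched genes of other kinds were Stard5, a sterol-binding protein, with 50.7, 74.1, 76.2 and 79.3 CPM against 0.938 CPM, Lcp1, an actin-bundling plastin, with 22.1, 37.1, 20.8 and 39.6 CPM against 0.536 CPM, and Il11ra1, an interleukin-11 receptor subunit, with 761, 462, 894 and 509 CPM against 28.0 CPM. The other genes among the 25 with the largest ratio to the highest other subtype were Mndal (60.2-fold), Myzap, Mmp11, AW551984, Lhfpl5, Abi3bp, Fbxo17, Cacng5, Ccdc88b and Gm17634 (7.09-fold). Myl4 (ENSMUSG00000061086, protein coding, chr11:104550663-104595753, plus strand), a myosin light chain known from heart atria and embryonic muscle, had 1802, 1491, 2254 and 2187 CPM against 102 CPM, with 198 CPM in DL-Foxp2.

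For lists of general neuronal machinery the shares over all genes measured, 2.91% higher and 5.11% lower, serve as background. In the synaptic vesicle cycle 1 of 57 measured genes was higher (1.75%), the priming factor Unc13c with 46.3, 28.5, 20.8 and 59.5 CPM against 3.14 CPM, and 4 were lower (7.02%), among them the active-zone protein Bsn with 59.5, 31.4, 43.9 and 26.4 CPM against 161 CPM. Among 17 subunits of the vacuolar proton pump (V-ATPase) 0 were higher and 0 were lower. The study's terms for genes differing between WT and Setd1a+/- cells of excitatory subtypes included synaptic vesicle recycling and, for DL-Tshz2, intracellular pH reduction. The counts here compare subtypes and not genotypes, and the same lists are set between genotypes below. Both lists were chosen with the study's results known, so they are not independent of these samples. The same counts of 0 and 0 were found for 14 genes of H3K4 methyltransferase complexes, 6 H3K4 demethylases, 82 ribosomal protein genes, and 91 nuclear genes of oxidative phosphorylation. Of 8 schizophrenia rare-variant genes, 1 was lower (Gria3, 12.5%), and of 16 heat shock and chaperone genes, 1 was lower (6.25%, Cryab, with 8.82, 22.8, 4.62 and 39.6 CPM against 80.1 CPM).

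Immediate early genes, which neurons transcribe within minutes of activity, were 0 higher and 6 lower of 19 measured, or 31.6% against the background of 5.11%, and their median log2 ratio was -1.30. Egr3 had 13.2, 14.3, 25.4 and 6.61 CPM against 105 CPM and was depleted, the lowest other subtype having 71.2 CPM. Homer1, a postsynaptic scaffold with an activity-induced form, had 72.8, 59.9, 73.9 and 92.5 CPM against 201 CPM. Nr4a2, an orphan nuclear receptor, had 1 UMI in the 304 cells against 25.2 CPM. Fos was found in 16.8% of DL-Tshz2 cells and 34.6% of the others, or 6.80% and 15.4% at equal depth. Per the methods, the tissue was dissociated into single cells with the enzyme papain before capture. The part of this handling in the levels of immediate early genes, here and between genotypes below, was not tested.

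DL-Tshz2 cells were the shallowest excitatory neurons. Their median UMIs per cell were 6097.5, 3652, 4461 and 4026, against means of the other subtypes' medians of 10378, 6060, 7588 and 7123 in the same libraries. The mean difference was -3228 UMIs (SD 776, n = 4 libraries). Each library showed this order, and the 2-sided exact sign-flip test gave p = 0.13, the smallest that 4 libraries allow. Detected genes followed, with 2712.5, 1906.5, 2136 and 2005 per cell and a mean difference of -835. At 1500 UMIs per cell the order was gone, with 1012, 984, 985 and 987 genes and a mean difference of 7.80 (exact sign-flip p = 0.25).

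The mitochondrial share of UMIs was the lowest of all excitatory subtypes in each library. It was 2.54, 2.94, 3.16 and 3.14% per median cell, against 3.87, 4.50, 5.40 and 4.64% in the other subtypes, a mean difference of -1.66 percentage points (SD 0.40, n = 4, exact sign-flip p = 0.13, the smallest possible). The authors' UMI totals leave out mitochondrial and ribosomal protein genes, but their cell filter used the mitochondrial share. In cells of at least 3000 and under 6000 UMIs, a comparison added after seeing the data, the difference was -2.91 points, though in WT replicate 1 only 1 other subtype had enough such cells. The 13 mitochondrially encoded genes had a median log2 ratio of -0.54, and mt-Co3, a cytochrome c oxidase subunit, had 7281, 8231, 9907 and 8570.3 CPM against 11779 CPM. Ribosomal protein genes took 5.17, 5.81, 5.37 and 5.27% of UMIs, 0.60 points more than the other subtypes on average (SD 0.30, exact sign-flip p = 0.13). In the cells of at least 3000 and under 6000 UMIs the difference was 1.31 points (SD 0.56), with the same limit in WT replicate 1.

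**Figure D4:**
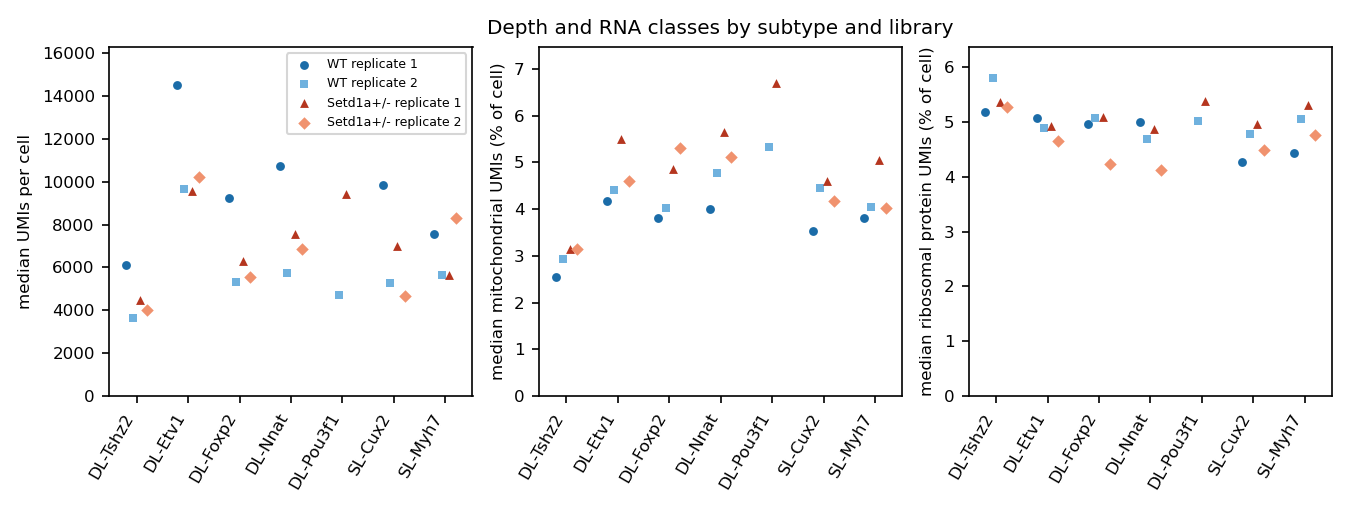
Median UMIs per cell, mitochondrial share of UMIs (%) and ribosomal protein share of UMIs (%) for each excitatory subtype, with a point for each library that had at least 10 cells of the subtype. DL-Tshz2 has the lowest UMIs and the lowest mitochondrial share in each of the 4 libraries, and DL-Pou3f1 has only 2 libraries.

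The share of DL-Tshz2 among excitatory neurons was 19.0% (Wilson interval 15.5 to 23.1) and 7.40% (6.05 to 9.03) in WT, and 14.6% (12.2 to 17.4) and 7.64% (5.60 to 10.4) in Setd1a+/- mice. Both replicates 1 were above both replicates 2, and the genotypes overlapped, with a mean difference of -2.09 points (2-sided exact permutation p = 1.0, where 2 libraries against 2 cannot go below 0.333). Of all annotated PFC cells, DL-Tshz2 cells made up 2.97, 3.28, 4.62 and 2.45%, with a mean difference of 0.41 points (exact permutation p = 1.0). Between replicates the 2 denominators gave different orders, the excitatory neurons themselves numbering 410, 1189, 692 and 484 per library. Median UMIs, detected genes and ribosomal protein share also overlapped between genotypes. The mitochondrial share was 0.41 points higher in Setd1a+/- cells without overlap (exact permutation p = 0.333, the smallest possible). It was 0.62 points higher in replicate 1 and 0.20 points in replicate 2. In cells of at least 3000 and under 6000 UMIs, a comparison added after seeing the data, the mean difference was 0.28 points.

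To examine the effect of the mutation on these neurons, UMIs were summed over the DL-Tshz2 cells of each library and compared between genotypes. The targeted gene, Setd1a (ENSMUSG00000042308, protein coding, chr7:127776670-127800122, plus strand), had 15.4, 5.70, 9.24 and 13.2 CPM from 7, 2, 4 and 2 UMIs, which overlapped between genotypes and fell under the filter on low counts. With no filter its log2 FC was -0.06 (standard error (SE) 0.86, adjusted p = 0.995, edgeR). In the other excitatory neurons it had 10.5, 12.9, 6.13 and 10.4 CPM. Counts of 3′ ends do not show a small frameshift deletion, so this gene does not check the labels.

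In DL-Tshz2, 0 of 5760 genes tested were called between genotypes (0%) at a false discovery rate (FDR) under 0.05 and FC above 1.5 in either direction, by edgeR's quasi-likelihood test. At an unadjusted p under 0.05, 47 genes were higher (0.816%) and 76 lower (1.32%). DESeq2 also called 0, with 10 at an unadjusted p under 0.05. Values of the 2 genotypes did not overlap for 789 genes higher (13.7%) and 821 lower (14.3%) in Setd1a+/- mice. With single libraries left out, the count was 17 without Setd1a+/- replicate 2, 9 without WT replicate 2, 7 without WT replicate 1 and 0 without Setd1a+/- replicate 1. In each of these fits 1 group held a single library, assumed to vary like the other group. Hbb-bs and Hba-a1 were among the genes called in the 3 fits with calls, which hold Setd1a+/- replicate 1. Between replicates 2 and 1, which hold 1 library of each genotype, 74 of the 5760 genes differed at an FDR under 0.05, with 67 higher in replicate 2.

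The markers of the subtype were not called between genotypes. The log2 FC of Setd1a+/- over WT was 0.01 for Tshz2 (SE 0.26), 0.11 for Etv1, -0.19 for Lypd1, 0.12 for Nxph1, -0.05 for Slc17a8, -0.02 for Trhr, -0.24 for Htr2c and -0.22 for Slc17a6. Of the 67 enriched genes 64 were tested and 0 were called, with 12 above and 3 below in both Setd1a+/- libraries (18.8% and 4.69%, against 13.7% and 14.3% of all genes). Of 20 depleted genes tested 0 were called, with 1 above and 4 below (5% and 20%, median log2 FC -0.17). Trh was lower in both Setd1a+/- libraries, at 50.8 and 39.6 CPM against 88.2 and 154 CPM, with a log2 FC of -1.35 (SE 0.41, unadjusted p = 0.00915, adjusted p = 1.00). It did not pass, and its share of cells at equal depth overlapped between genotypes as given above.

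The genes with the smallest p on the lower side were Crnkl1, a splicing factor, with 50.7, 34.2, 6.93 and 6.61 CPM (log2 FC -2.59, SE 0.63, adjusted p = 1.00), and Syt10, a synaptotagmin, with 61.7, 48.5, 9.24 and 19.8 CPM (log2 FC -2.14, SE 0.54, adjusted p = 1.00). Syt10 was also lower in Setd1a+/- libraries of the other excitatory neurons, with 27.1, 14.4, 8.95 and 6.82 CPM (log2 FC -1.35, SE 0.36, adjusted p = 1.00). Dlgap2, a postsynaptic density protein, had 59.5, 65.6, 16.2 and 26.4 CPM (log2 FC -1.68, adjusted p = 1.00). On the higher side stood Ube2g2, a ubiquitin-conjugating enzyme of endoplasmic reticulum degradation, with 35.3, 22.8, 73.9 and 92.5 CPM (log2 FC 1.45, SE 0.40, adjusted p = 1.00), and Selenot, a selenoprotein of the endoplasmic reticulum, with 94.8, 111, 213 and 185 CPM (log2 FC 0.96, SE 0.29, adjusted p = 1.00). The genotypes did not overlap for these genes, a property by which they were chosen, and none passed the adjustment over all genes.

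By gene group, 0 members were called in any list. Over all genes tested, 0.816% had an unadjusted p under 0.05 with a higher and 1.32% with a lower level in Setd1a+/- mice, and 13.7% lay above and 14.3% below in both Setd1a+/- libraries. Of 55 synaptic vesicle genes tested 0 were higher and 2 lower at an unadjusted p under 0.05, and 1 lay above and 7 below (median log2 FC -0.16). Of 16 V-ATPase genes 0 and 0 passed that p, and 4 lay above and 1 below (median 0.03). Of 18 sodium, calcium and HCN channels 0 and 0 passed it, and 2 lay above and 7 below (-0.19). Of 11 ionotropic glutamate receptors 0 and 0 passed it, and 0 lay above and 3 below (-0.33). Of 9 genes of H3K4 methyltransferase complexes 0 were higher and 1 lower at that p, and 0 lay above and 2 below (-0.38). With lists this small, these counts are described and not read as departures from the shares over all genes. Medians were 0.04 over 82 ribosomal protein genes, 0.03 over 91 nuclear oxidative phosphorylation genes, and -0.02 over all genes tested.

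To find out whether the genotype difference in DL-Tshz2 was unlike that in other excitatory neurons, DL-Tshz2 and the sum of the other 6 subtypes were fitted together with a subtype by genotype term and the library as a block. Of 10989 genes tested, 8 passed an FDR of 0.05, 4 with a higher and 4 with a lower difference in DL-Tshz2 (0.0364% each). These were Myl4, the haemoglobin genes Hbb-bs, Hba-a1 and Hba-a2, the immediate early genes Fos, Junb and Npas4, and Cck. Their p-values rest on a spread pooled over genes, and Hbb-bs had an SE of 0.26 here against 1.17 within DL-Tshz2 alone. At an unadjusted p under 0.05, 134 were higher (1.22%) and 277 lower (2.52%). With the replicate number as the block in place of the library 2 passed, Hbb-bs and Hba-a1, and with DESeq2 1 passed, Myl4. The replicate block leaves the 2 sums of a library unpaired.

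Myl4 rose in DL-Tshz2 relative to other excitatory neurons. In DL-Tshz2 cells it had 1802, 1491, 2254 and 2187 CPM, and in the other excitatory neurons 152, 163, 113 and 106 CPM, so that the genotypes did not overlap in either group of cells and lay in opposite orders. Means of Myl4 in the other subtypes ran from 13.3 CPM in SL-Myh7 to 198 CPM in DL-Foxp2. The mix of subtypes in their sum was not held equal between libraries, and its part was not tested. The difference of the 2 effects was 0.91 on the log2 scale (SE 0.14, adjusted p = 1.59e-07, edgeR). Within DL-Tshz2 alone the log2 FC was 0.43 (SE 0.23, adjusted p = 1.00), and within the others -0.51 (SE 0.18, adjusted p = 1.00). Over 12 alternatives it passed in 9, and its log2 difference lay between 0.71 and 1.11. It did not pass without WT replicate 2 (0.71, adjusted p = 1.00), against DL-Etv1 cells alone (0.78, adjusted p = 0.152), or with the replicate block (0.91, adjusted p = 0.524). Myl4 UMIs were found in 85.9, 88.6, 97.0 and 86.5% of DL-Tshz2 cells, and in 74.0, 78.6, 82.2 and 75.0% at equal depth, which overlapped between genotypes. The promoter of Myl4 is shown above.

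In DL-Tshz2, 3 immediate early genes fell relative to the other excitatory neurons. Fos, a subunit of the AP-1 transcription factor, had 99.2, 71.3, 43.9 and 19.8 CPM in DL-Tshz2 and 126, 136, 221 and 159.5 CPM in the others, again in opposite orders without overlap. The log2 difference was -1.87 (SE 0.35, adjusted p = 0.000325), and within DL-Tshz2 the log2 FC was -1.25 (SE 0.42, unadjusted p = 0.0155, adjusted p = 1.00). It passed in 6 of 12 alternatives, with log2 differences of -2.50 to -1.45. Without cells that held UMIs specific to another cell class, an alternative added after seeing the data, it was -1.45 (adjusted p = 0.182), without WT replicate 1 it was -1.53, without Setd1a+/- replicate 1 -2.50 (adjusted p = 0.143), and with the replicate block -1.78 (adjusted p = 0.401). The share of DL-Tshz2 cells with Fos was 26.9, 14.8, 14.9 and 5.41%, and at equal depth 5.19, 9.52, 7.92 and 0%, which overlapped between genotypes.

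Junb, another AP-1 subunit, had 48.5, 108, 25.4 and 52.9 CPM in DL-Tshz2, which overlapped, and 156, 149.7, 208 and 186 CPM in the others, with a log2 difference of -1.63 (SE 0.38, adjusted p = 0.0247). It passed in 5 of 12 alternatives, with log2 differences of -2.17 to -0.89. It was -0.94 without WT replicate 2 (adjusted p = 1.0) and -0.89 without Setd1a+/- replicate 1 (adjusted p = 0.983). Npas4, an activity-dependent transcription factor, had 37.5, 19.95, 0 and 6.61 CPM, from 17, 7, 0 and 1 UMIs, and 37.6, 45.7, 41.2 and 39.7 CPM in the others, with a log2 difference of -4.07 (SE 0.98, adjusted p = 0.0482), and passed in 3 of 12. Its log2 difference was -2.19 without Setd1a+/- replicate 1 (adjusted p = 0.983) and -9.19 without Setd1a+/- replicate 2 (adjusted p = 0.0303). Over the whole list of immediate early genes, 3 of 23 tested passed, all lower, where 0.0364% of all genes tested did, 7 had an unadjusted p under 0.05 on the lower side (all genes 2.52%) and 0 on the higher (1.22%), and the median log2 difference was -0.56, against -0.05 over all genes tested. Egr1, an early zinc-finger factor, had a log2 difference of -0.61 (SE 0.28, not passed). With the replicate block 0 of the 3 passed.

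Cck had 4.41, 65.6, 4.62 and 0 CPM in DL-Tshz2 and 1417, 737, 1600.5 and 761 CPM in the others, with a log2 difference of -3.52 (SE 0.81, adjusted p = 0.0247). The value rested on WT replicate 2, without which it was -0.32. Without WT replicate 1 it was -5.16, and without Setd1a+/- replicate 1 it was -8.73. Cck passed in 4 of 12 alternatives. Without possible doublets, an alternative added after seeing the data, the log2 difference of Cck was -1.96 (adjusted p = 1.0). Interneuron markers were also highest in WT replicate 2, with 105 CPM against 13.2 to 27.7 CPM in the other libraries, and their part in the Cck result was not tested. The 3 haemoglobin genes rested on single cells. Hbb-bs had 46.3, 22.8, 1074 and 19.8 CPM in DL-Tshz2, and 1 cell of Setd1a+/- replicate 1 held 585 of the 610 haemoglobin UMIs of its library's DL-Tshz2 cells (95.9%). Among other excitatory neurons, 1 cell each held 1002 of 1233 in WT replicate 1 and 1136 of 1339 in Setd1a+/- replicate 1. Without these 3 cells Hbb-bs had a log2 difference of 0.21, and Myl4 and Fos alone passed. Junb, Npas4 and Cck did not pass, but their log2 differences moved little, to -1.57, -4.02 and -3.47.

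**Figure D5:**
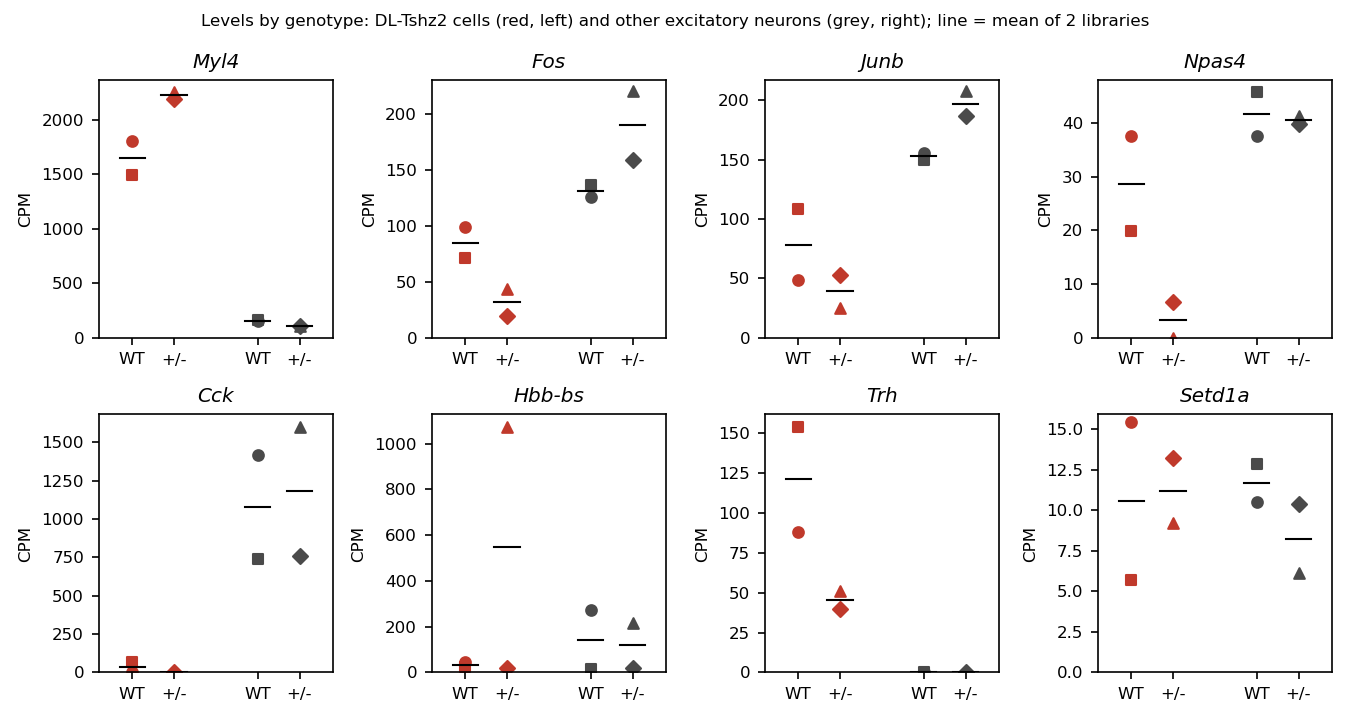
CPM by genotype of Myl4, Fos, Junb, Npas4, Cck, Hbb-bs, Trh and Setd1a in DL-Tshz2 (red) and in the other excitatory neurons (grey); each point is a library and each line the mean of 2. Myl4 is higher and Fos lower in both Setd1a+/- libraries of DL-Tshz2, in the opposite order to the other neurons, whereas Hbb-bs in DL-Tshz2 is set by the 1074 CPM of Setd1a+/- replicate 1.

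The other subtypes with at least 10 cells in every library (DL-Foxp2, DL-Etv1, SL-Cux2, DL-Nnat and SL-Myh7) were fitted in the same way and had 0 genes called between genotypes, while DL-Pou3f1 was not fitted. In DL-Foxp2, the subtype with the fewest genes apart from DL-Tshz2 in the counts above, 0 of 8854 genes were called, with 198 at an unadjusted p under 0.05. Compared with DL-Foxp2 cells alone, 6 genes passed the test of a difference, of which Myl4, Fos, Junb and Npas4 were shared with the 8 above, and compared with DL-Etv1 cells alone 1 passed, Hbb-bs.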

How the data were processed

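PFC cells were sequenced in 4 droplet libraries, 2 WT and 2 Setd1a+/-. The authors counted UMIs with Cell Ranger 3.0.2 on mm10, per the submitters' processing notes, and deposited raw counts per gene and barcode, empty droplets included. A deposited table gives the library, cluster, subtype and UMAP coordinates (a score with no unit) that the authors obtained with Seurat 3.2.0. Their UMI total per cell was, at the median, 99.97% of the matrix total without 13 mitochondrial and 105 ribosomal protein genes. Doublet removal is not given in the sources used here, and no doublet caller was run.

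DL-Tshz2 cells were looked up in the matrices by library and barcode, with no further filter. A subtype entered a library with at least 10 cells. Counts were summed per library and subtype and divided by the sum (CPM, all genes included). Sums were tested with edgeR 4.0.16 in R 4.3.3 (quasi-likelihood, TMM, genes kept by filterByExpr at a minimum of 10 counts, p adjusted by Benjamini-Hochberg over all genes tested). DESeq2 1.42.0 was an alternative. Python 3.11.15 with numpy 2.4.6, pandas 2.3.3 and scipy 1.17.1 was used for the rest. The test was tested on simulated data with known changes. Nothing shows how far libraries of 2 pooled animals vary beyond these 4. Because edgeR pools the spread over genes, its p-values do not measure a gene's own spread between these libraries alone. An SE given with edgeR is the size of the log2 FC divided by the square root of the test's F statistic. It therefore carries the same pooled spread and is no separate measure. Intervals cover counting error only.

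The genes, gene lists and tests were chosen with earlier results of these data known. Named were the markers, the 25 enriched and 15 depleted genes of most extreme ratio, and the genes called. Further genes were taken from the members of each list with the highest level (up to 4) and the highest and lowest ratio (up to 3 each), and from the genes of smallest p, and not all of these are printed. Cbln2 and Nap1l5 were chosen after their values were seen. Per the methods each replicate pairs a WT with a Setd1a+/- library, and the replicate differences correlated between genotypes (0.55 over 2210 genes, with only 2 pairs). The genotype test within DL-Tshz2 has no replicate block, which was an alternative. The test of a difference has the library as its block, which the replicate replaced in the alternative. That alternative takes the DL-Tshz2 sum and the sum of the others in a library as independent. Coordinates are from GENCODE vM21. Promoters (RefSeq) were matched by symbol. A result that needs a withheld item is not reported here.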

Additional observations from a re-analysis of the deposited data

Results flagged for a closer look

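The genotype difference in DL-Tshz2 was unlike that in the other excitatory neurons, by the subtype by genotype term of edgeR, for 8 genes, listed with the log2 difference of the 2 effects (Setd1a+/- over WT). It was 0.91 for Myl4, -1.87 for Fos, -1.63 for Junb, -4.07 for Npas4, -3.52 for Cck, 4.30 for Hbb-bs, 5.70 for Hba-a1 and 2.69 for Hba-a2. Within DL-Tshz2 alone 0 genes were called. With the replicate number as the block in place of the library, which leaves the 2 sums of a library unpaired, Hbb-bs and Hba-a1 alone passed. The adjusted p (edgeR) was then 0.524 for Myl4, 0.401 for Fos, 0.524 for Npas4, and 1.0 for Junb and Cck. Without WT replicate 2 the value for Cck was -0.32. Without the 3 cells rich in haemoglobin Myl4 and Fos passed, while Junb, Npas4 and Cck did not pass at nearly the same log2 differences (-1.57, -4.02 and -3.47).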

How the results depend on the processing

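Between genotypes, 5 genes were called in DL-Tshz2 with no filter on low counts and 0 to 17 with each library left out, while the other settings gave 0. For the difference from other excitatory neurons, the 8 genes called became 1 against DL-Etv1 cells, 2 with the replicate block, 2 without the 3 cells rich in haemoglobin, 5 without possible doublets, 1 with DESeq2, and 3 to 9 with each library left out. Without Setd1a+/- replicate 1, 9 were called, 1 of them (Myl4) shared with the 8, and the median of all genes moved to -0.12. Hba-a2 turned to -2.01 against DL-Foxp2 cells and to -0.78 without the haemoglobin-rich cells, and with each library left out Hba-a1 lay between -2.46 and 7.98 and Hba-a2 between -5.13 and 2.83, the negative values being those without Setd1a+/- replicate 1. The replicate block changed no call of genotype within DL-Tshz2, with 248 genes at an unadjusted p under 0.05 and 0 called.

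Enriched genes numbered 39 at 3-fold, 130 at 1.5-fold and 40 after thinning, 33 of these shared, and 72 to 85 with each library left out. Depleted genes numbered 16 at 3-fold and 66 at 1.5-fold, and 40 to 41 with each library left out. Leaving out a library removes a condition from both rules, which by itself lets more genes pass. With each library left out, the log2 FC of Setd1a lay between -0.51 and 0.76, the difference in the share of excitatory neurons between -7.90 and 3.72 points, in median UMIs between -1854 and 591.5, in detected genes between -642 and 164, and in ribosomal protein share between -0.49 and 0.15 points. The share of all annotated cells differed by 0.41 points, and detected genes at equal depth by 7.80 from other subtypes. The causes were not tested. Of 397 ratios of named genes under alternatives 50 moved beyond the spread between libraries, and 3 could not be given after thinning because the other subtypes had no UMI. The 397 include the 3-fold and 1.5-fold settings, which do not enter a ratio, so those ratios could not move. A planned doublet filter on all markers of other classes left 5, 25, 9 and 4 cells per library and gave no value. Low UMI numbers, as for Setd1a and Npas4, limit what could be seen.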
